A study of Mus musculus with 24 samples.

Results

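Receptors for glutamate and for γ-aminobutyric acid (GABA) were examined in mouse embryonic stem cells (ESCs) and in neural progenitor cells (NPCs) derived from them. The genes were chosen by symbol: Gria1 to Gria4, Grik1 to Grik5, the Grin genes, the Grm genes of metabotropic receptors, all GABA-A subunit symbols that start with Gabr, and Gabbr1 and Gabbr2. The rule found 45 genes among the 21909 symbols of the expression tables, of which 4 encode AMPA, 5 kainate and 7 NMDA receptor subunits, 8 metabotropic glutamate receptors, 19 GABA-A and 2 GABA-B receptor subunits. No measured value entered the rule, although it was chosen with earlier results of these data known.

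Glutamate is the main excitatory transmitter of the brain, and its ionotropic receptors are cation channels built from several subunits, whereas its metabotropic receptors act through G proteins. GABA is the main inhibitory transmitter of the mature brain and opens the chloride channels of GABA-A receptors or activates the G protein-coupled GABA-B receptor. Both transmitters are also known to act on progenitor cells before synapses form.

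The series comprises 24 samples and asks how contacts of the genome with the nucleolus relate to gene expression before and after neural differentiation. E14 ESCs, an established mouse line, were grown without feeder cells in medium with LIF and inhibitors of MEK and GSK3β. NPCs were made from E14 ESCs as embryoid bodies in serum-containing medium over 8 days, with 2 µM retinoic acid during the last 4 days. RNAseq was performed on 3 untreated ESC and 3 NPC samples. Nucleolar-DamID maps nucleolus-associated domains (NADs) by adenine methylation from H2B-Dam-NoLS, a histone fusion sent to nucleoli by a localization signal, set against H2B-Dam, which lacks that signal; each cell type had 2 samples of either fusion, induced by doxycycline (100 ng/ml) together with Shield1 (1 µM) over 15 h. The other samples of the series are ChIPseq libraries of ESCs and were not used here.

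The deposited expression values are RPKM, reads per kilobase per M reads. The steps between low values showed what a single read was worth in each gene, and from them whole reads were recovered. They correspond to totals of 34.1, 33.7 and 30.8 M reads in ESC replicates 1 to 3 and of 30.2, 27.3 and 32.3 M in NPC replicates 1 to 3. Of 37241 values of up to 200 reads, 35297 (94.8%) were whole within 0.02 reads. All 45 receptor genes gave whole reads, for Grm4 by construction, since its length was taken from the common step of its own values. Apart from Grm4, the deposited RPKM gave these whole reads with the genomic span of the gene, introns included, as the length. The methods of the study, by contrast, describe coverage of exons. Whether reads in introns were counted was not tested, and the levels per exon length given below treat all recovered reads as exonic. The span matters for receptor genes, whose median span was 121 kb (from 6.48 to 922 kb) against 17.4 kb over the 21627 genes with a position. The median length of their annotated exons was 6.31 kb against 3.51 kb. A long receptor gene therefore has a low deposited RPKM even with many reads. Below, differences are given on log2(RPKM + 0.1), on which a change of a low gene is understated, and on recovered reads. Levels of different genes are compared as recovered reads per kilobase of annotated exon per M reads, called exon RPKM. Recovered reads per M reads are called RPM.

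ESC replicate 3 stood apart from the other ESC samples. Between ESC replicates 1 and 2 the median absolute log2 difference over 12110 genes was 0.07, and 23 genes differed more than 2-fold. ESC replicate 3 differed from replicate 1 by a median of 0.40, with 1313 genes more than 2-fold apart, and from replicate 2 by 0.38, with 1144 such genes. Pairs of NPC samples differed by medians of 0.06 to 0.09 and in 23 to 39 genes. Results are therefore given with and without ESC replicate 3 where it moves them. The sample titles number the replicates of each cell type and do not tell whether these came from separate cultures. The labels give no batch that holds both cell types, so the cell types cannot be told apart from their media and from any batch of culture or sequencing. RNA was measured in bulk, in which a lower share of cells with a transcript and less transcript per cell cannot be told apart.

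The labels of the cell types were set against marker genes. All 8 pluripotency markers fell in NPCs in limma on log2(RPKM + 0.1), and their summed level was 3625, 3611 and 6986 exon RPKM in ESC replicates 1 to 3 against 5.06, 4.35 and 4.48 in NPC replicates 1 to 3. The most abundant was Dppa5a in ESCs, with 3473 ± 1920 exon RPKM (SD, n = 3), and Klf4 in NPCs, with 3.45 ± 0.126 exon RPKM. Dppa3 had no read in any NPC sample. Of 8 neural progenitor markers, 7 rose in NPCs, whereas Vim, an intermediate filament gene and the most abundant of the list in both cell types, was not called (74.1 ± 10.5 exon RPKM in ESCs and 85.5 ± 5.19 in NPCs, SD, n = 3; limma adjusted p = 0.201). Without ESC replicate 3 Vim was called higher on both scales (0.32, limma adjusted p = 0.0026; 0.33 on reads, limma-voom adjusted p = 0.000204), and after centring the samples on their medians it was called lower on reads (-0.54, limma-voom adjusted p = 0.0318). The summed exon RPKM of the progenitor list was 81.7, 85.2 and 99.2 in ESCs and 173, 184 and 191 in NPCs. Reads of Pax6, a transcription factor of radial glia, numbered 13, 16 and 4 in ESC replicates 1 to 3 and 1328, 1105 and 1535 in NPC replicates 1 to 3. Hes5, a target of Notch signalling, had no read in ESCs and 109, 141 and 164 reads in NPCs.

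Markers of neurons and of other lineages were present in NPCs as well. On recovered reads 8 of 10 neuronal markers rose and 2 fell, the latter being Tubb3 (41.3 ± 4.33 exon RPKM in ESCs and 23.5 ± 2.88 in NPCs, SD, n = 3) and Stmn2 (49.3 ± 10.3 in ESCs). These led the list in ESCs without a difference beyond their spread, and Tubb3 led it in NPCs. The summed exon RPKM of the neuronal list was 80.8, 86.8 and 106 in ESCs and 49.4, 40.6 and 47.3 in NPCs. Dcx and Syt1 had no read in ESCs, and Dcx, which marks young neurons, reached 2457, 1735 and 2186 reads in NPC replicates 1 to 3. Of 6 mesoderm and endoderm markers 4 rose and T fell, and their summed exon RPKM went from 4.20, 4.57 and 3.68 in ESCs, where T was highest (3.34 ± 0.303), to 145, 149 and 151 in NPCs, where Gata4 was highest (110 ± 1.97). Gata4 had 93, 104 and 54 reads in ESCs and 12845, 11563 and 14155 in NPCs. Of 3 endothelial markers Kdr and Cdh5 rose and Pecam1 fell, with sums of 19.2, 18.6 and 14.6 exon RPKM in ESCs, mostly Pecam1 (17.1 ± 2.33), and 36.9, 31.4 and 30.2 in NPCs, where Kdr was highest (14.9 ± 0.878).

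Glial and neural crest markers were mixed. On recovered reads 4 of 5 markers of the oligodendrocyte lineage rose and Mog fell, with sums of 3.05, 2.41 and 1.93 exon RPKM in ESCs and 27.6, 19.9 and 19.2 in NPCs, where Pdgfra was highest (17.7 ± 4.77). Of 4 astrocyte markers 2 rose, Aldh1l1 fell and Gfap was not called, with sums of 12.7, 13.2 and 16.1 exon RPKM in ESCs, mostly Aldh1l1 (14.0 ± 1.87), and 0.441, 0.669 and 0.448 in NPCs, where Aldh1l1 was also highest (0.298 ± 0.0459). Gfap, the defining astrocyte filament, was near 0 with 7, 2 and 2 reads in ESCs and 4, 7 and 9 in NPCs, and S100b and Aqp4 were at 0 in ESCs. Of 4 neural crest markers Sox9, also a gene of radial glia, rose and 3 fell, with sums of 27.3, 29.7 and 20.7 exon RPKM in ESCs, where Ngfr was highest (15.6 ± 3.73), and 22.3, 23.4 and 22.8 in NPCs, where Sox9 was highest (13.9 ± 0.628). The part of neuronal, mesodermal, endodermal and endothelial cells in the receptor differences was not tested.

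Most receptor genes were higher in NPCs than in ESCs, and the few that fell include the shared subunit of NMDA receptors. In limma on log2(RPKM + 0.1), 12110 genes reached a mean of 0.1 RPKM over the 6 samples, of which 41.3% were called higher in NPCs and 30.0% lower at an adjusted p below 0.05. At least 2-fold higher were 27.3%, and at least 2-fold lower 15.5%. Only 7 of the 45 receptor genes reached that mean. Of these, Grin2c, Grik5, Gabre and Grm2 were called higher, Grin1 and Grik3 lower, each of them at least 2-fold, and Gabbr1 was not called. The other 38 were not tested on this scale. Over all 45 receptor genes the median difference of log2(RPKM + 0.1) was 0.04, against 0.0016 over all genes. The median of the receptor genes depended strongly on the pseudocount and on the scaling, with the values given under the last heading.

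On recovered reads, tested with limma-voom over the 16181 genes with at least 10 reads in the 6 samples, 45.8% of genes were called higher and 26.9% lower, and 37.6% and 17.0% were called at least 2-fold higher and lower. Here 39 of the 45 receptor genes were tested, 30 were called higher in NPCs, all at least 2-fold, 4 lower, all at least 2-fold, and 5 were not called. Of those called higher, 7 had no read in any ESC sample and passed the minimum only through NPCs. The filter fixed their direction, and nothing is concluded from their adjusted p. Genes that pass this minimum only through the cell type in which they are high had to differ, so the count describes the tested genes and not all members. Their median log2 difference was 3.71, against 0.43 over all genes tested. With genes at 0 in ESCs set to the bound that 3 reads over the group allow, the median of the 42 receptor genes with a ratio was 3.13. All 6 receptor genes called on log2(RPKM + 0.1) were called in the same direction on reads. Each of the 34 genes called on reads had NPC samples that did not overlap with the ESC samples in RPM. Such overlap was not counted over all called genes, so its absence is not read as particular to receptor genes. All 34 were also called in the same direction without ESC replicate 3, where Gabrr1 joined those called lower.

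The balance of higher and lower calls over all genes depended on the scaling. On log2(RPKM + 0.1), 57.9% of called genes were higher in NPCs, against 72.3% with each sample rescaled to the same sum and 43.4% with the samples centred on their medians, which shifted the median of all genes by 0.44 and by -0.38. On recovered reads the share was 63.0%, and 42.0% after centring, which shifted the median of all genes by -0.75. Relative to that median 28 receptor genes were called higher and 5 lower in limma-voom, with 32 of the 34 calls shared: Gabbr2 was among those no longer called, and Gabrg3 was called lower. Intervals and lower bounds below cover counting error only.

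**Figure D1:**
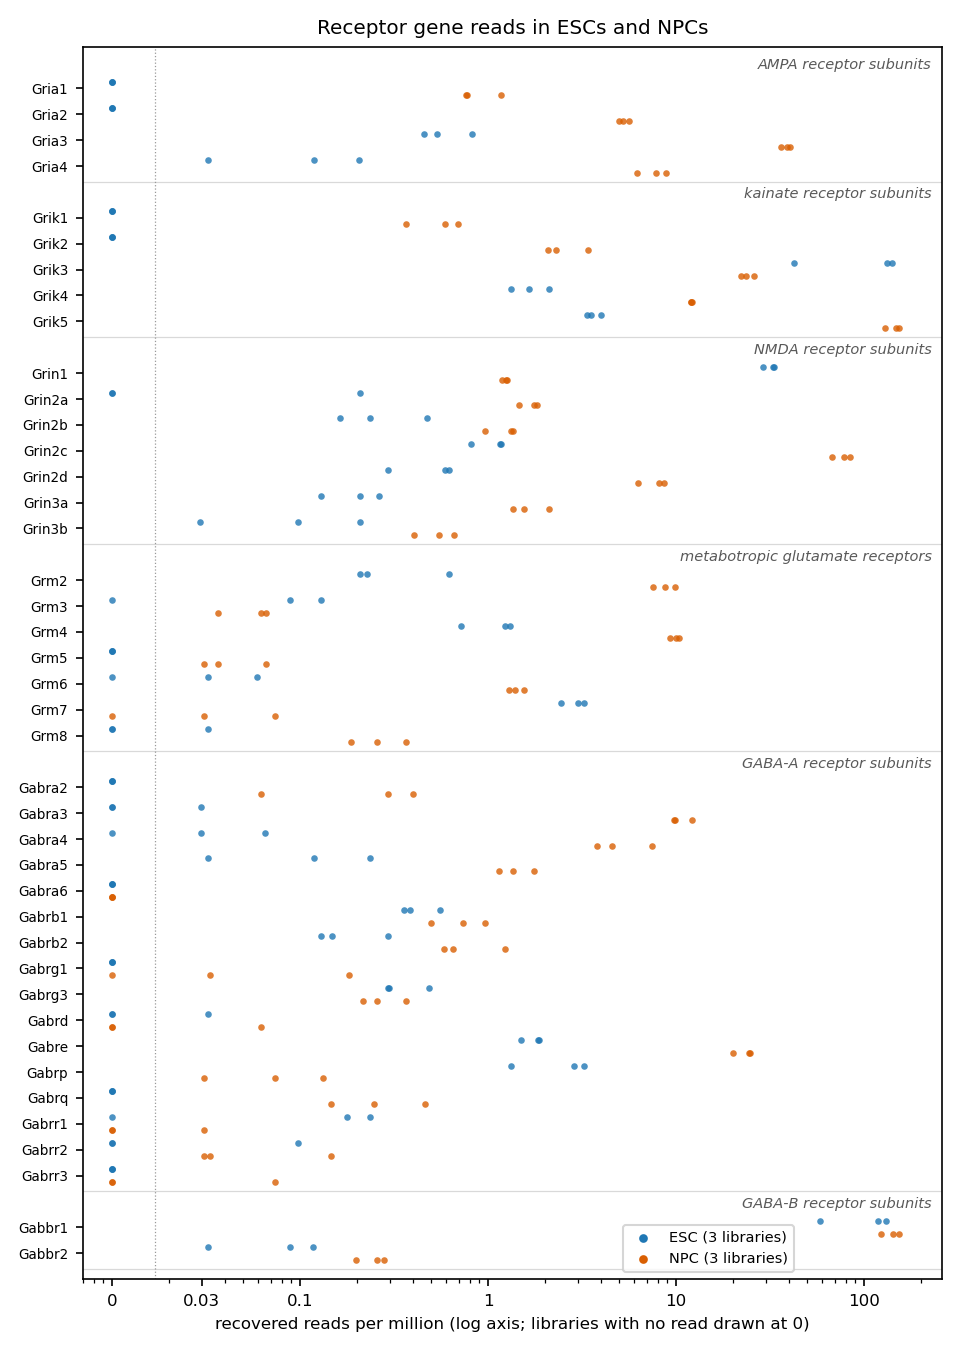
Recovered reads per M reads (RPM) of receptor genes in 3 ESC samples (blue) and 3 NPC samples (orange), on a log axis on which samples without a read are drawn at 0. Grin1, Grik3, Grm7 and Gabrp lie lower in NPCs in every sample, and the genes called higher lie to the right in every NPC sample; relative to the median of all genes Gabbr2 was not called.

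AMPA receptors carry most fast excitatory transmission, as tetramers of the products of Gria1 to Gria4. All 4 genes rose in NPCs on recovered reads, whether or not the samples were centred or ESC replicate 3 was included. Their summed level was 0.116, 0.0729 and 0.0513 exon RPKM in ESC replicates 1 to 3 and 5.52, 5.82 and 5.48 in NPC replicates 1 to 3, a ratio of the means of 70.1. None of the 4 reached the mean of 0.1 deposited RPKM. Gria3, on the X chromosome at chrX:41400854-41678601 of GRCm38, was the most abundant in both cell types.

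Reads of Gria3 numbered 28, 18 and 14 in ESCs and 1092, 1107 and 1257 in NPCs, or 0.0612 ± 0.0196 and 3.91 ± 0.224 exon RPKM (SD, n = 3). All NPC samples lay far above all ESC samples, 63.9-fold in RPM, and the log2 difference was 6.01 ± 0.23 (SE; limma-voom adjusted p = 1.77e-06). Gria3 made up 78.7% of the summed AMPA level in ESCs and 69.7% in NPCs. Gria2, whose edited subunit makes the channel impermeable to calcium, had no read in any ESC sample and 150, 142 and 181 reads in NPC replicates 1 to 3. It was thus at least 173-fold higher in NPCs, through which alone it passed the minimum of reads (limma-voom adjusted p = 1.45e-06). Its level in NPCs, 0.338 ± 0.0205 exon RPKM, was 6.04% of the AMPA sum, below Gria3 and Gria4 in every NPC sample.

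Gria4 had 7, 4 and 1 reads in ESCs and 267, 213 and 200 in NPCs. The groups did not overlap, and Gria4 was 64.1-fold higher in NPCs (101-fold without ESC replicate 1) with a level of 1.21 ± 0.213 exon RPKM (limma-voom adjusted p = 3.77e-05). Gria1, the subunit best known from synaptic plasticity, was without a read in ESCs and had 23, 21 and 38 reads in NPCs, at least 30.0-fold more (limma-voom adjusted p = 1.35e-05). Gria1 also passed the minimum only through NPCs. Its level in NPCs was 0.149 ± 0.0392 exon RPKM, the lowest of the AMPA genes.

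Kainate receptors are built from low-affinity subunits, encoded by Grik1 to Grik3, and high-affinity subunits, encoded by Grik4 and Grik5, which need a low-affinity partner to form a channel. The main kainate subunit gene was a low-affinity one, Grik3, in ESCs and a high-affinity one, Grik5, in NPCs. On recovered reads 4 of the 5 genes rose and Grik3 fell, also after centring and without ESC replicate 3. The summed kainate level was 15.8, 16.7 and 5.74 exon RPKM in ESCs and 30.4, 34.4 and 33.4 in NPCs.

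Grik5, at chr7:25009849-25072346 of GRCm38, had 115, 119 and 123 reads in ESCs and 3902, 4186 and 4756 in NPCs. Every NPC sample lay above every ESC sample, at 27.7 ± 2.42 against 0.703 ± 0.0625 exon RPKM (SD, n = 3), or 39.5-fold higher in RPM. The log2 difference was 5.31 ± 0.14 on reads (SE; limma-voom adjusted p = 1.08e-06). The difference on log2(RPKM + 0.1) was 3.92 ± 0.10 (limma adjusted p = 3.13e-07). Grik5 was the receptor gene with the highest exon RPKM of all 45 in NPCs, and its share of the kainate sum was 4.13%, 4.10% and 13.5% in ESC replicates 1 to 3 and 84.7% on average in NPCs.

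Grik3, at chr4:125490700-125714173 of GRCm38, had 4522, 4754 and 1311 reads in ESC replicates 1 to 3 and 785, 605 and 764 in NPCs. ESC replicate 3 lay between the other ESC samples and the NPCs without reaching the latter, and the mean level was 11.8 ± 6.08 exon RPKM in ESCs and 2.67 ± 0.216 in NPCs (SD, n = 3). Grik3 was 4.40-fold lower in NPCs, with a log2 difference of -1.94 ± 0.45 (SE; limma-voom adjusted p = 0.00659). Without ESC replicate 3 the log2 difference was -2.51 (limma-voom adjusted p = 1.89e-10, with a range of 1.89e-10 to 0.0263 over all alternatives). On log2(RPKM + 0.1) Grik3 fell by 1.35 (limma adjusted p = 0.0127), but the call was lost with each sample rescaled to the same sum (limma adjusted p = 0.056, with a range of 8.44e-07 to 0.056 over all alternatives). Its share of the kainate sum was 93.6%, 94.2% and 82.6% in ESC replicates 1 to 3 and 8.21% on average in NPCs.

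Grik2 had no read in ESCs and 103, 57 and 74 reads in NPCs, at least 85.7-fold more (limma-voom adjusted p = 7.69e-06). Grik1 was likewise without a read in ESCs and had 21, 10 and 19 reads in NPCs, at least 18.3-fold more (limma-voom adjusted p = 3.72e-05). Both passed the minimum only through NPCs and remained below 1% of the kainate sum there. Grik4, the other high-affinity subunit gene, had 72, 56 and 41 reads in ESCs and 368, 329 and 389 in NPCs, was 7.11-fold higher without overlap between the groups, and reached 2.03 ± 0.0146 exon RPKM in NPCs (limma-voom adjusted p = 1.31e-05).

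NMDA receptors are coincidence detectors that need the subunit encoded by Grin1 in every channel, joined by glutamate-binding subunits of the Grin2 genes or by glycine-binding subunits of the Grin3 genes. In these samples Grin1 fell whereas the 6 other NMDA genes rose, on recovered reads with and without ESC replicate 3 and also after centring. The summed NMDA level was 3.80, 3.81 and 3.26 exon RPKM in ESCs and 15.0, 17.4 and 18.5 in NPCs. Grin1 provided 90.5% of this sum in ESCs and 0.755% in NPCs, and Grin2c 5.70% and 89.8%.

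Grin1, at chr2:25291181-25319187 of GRCm38, had 1137, 1104 and 898 reads in ESC replicates 1 to 3 and 36, 34 and 41 in NPC replicates 1 to 3. All ESC samples were alike and far above the NPCs, with 3.27 ± 0.234 against 0.128 ± 0.00400 exon RPKM (SD, n = 3). Grin1 was 25.7-fold lower in NPCs, with a log2 difference of -4.65 ± 0.17 on reads (SE; limma-voom adjusted p = 1.46e-06). Measured on log2(RPKM + 0.1), it was -3.10 ± 0.09 (limma adjusted p = 4.05e-07). Of its exon bases, 1307 lie opposite exons of the antisense transcript Grin1os, and as the sources used here do not give the use of strand in counting, reads of both cannot be told apart. The same limit applies to Grin2d, with 643 exon bases opposite another annotated transcript, Grm6 with 599, Grm2 with 470, Gabrr3 with 279, Gabra5 with 148, Grin2b with 143 in its largest overlap, Grm7 with 130 and Grin2c with 91.

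Grin2c, at chr11:115249169-115267243 of GRCm38, encodes a subunit best known from cerebellar granule cells and had 40, 39 and 25 reads in ESCs and 2038, 2139 and 2728 in NPCs. Its level was 0.208 ± 0.0405 exon RPKM in ESCs and 15.3 ± 1.70 in NPCs (SD, n = 3), 73.3-fold higher with no overlap between the groups. The log2 difference was 6.20 ± 0.21 on reads (SE; limma-voom adjusted p = 1.40e-06). Measured on log2(RPKM + 0.1), it was 4.78 ± 0.12 (limma adjusted p = 2.99e-07), the largest among the 7 receptor genes tested on that scale.

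The other NMDA genes stayed at lower levels. Grin2d had 20, 21 and 9 reads in ESCs and 189, 235 and 262 in NPCs, 15.3-fold more, at 1.15 ± 0.186 exon RPKM in NPCs (limma-voom adjusted p = 3.55e-05). It passed the minimum on log2(RPKM + 0.1) without ESC replicate 3, where it rose by 1.22 (limma adjusted p = 3.2e-05). Grin2a, a subunit gene known for its rise in the postnatal brain, had 7 reads in ESC replicate 2, none in the others, and 55, 48 and 47 in NPCs (24.3-fold, which rests on ESC replicate 2; limma-voom adjusted p = 0.000852). Grin2b, the main Grin2 gene of the embryonic brain, had 8, 16 and 5 reads in ESCs and 41, 36 and 31 in NPCs (4.18-fold; limma-voom adjusted p = 0.00235). In exon RPKM, Grin2b was the lowest NMDA gene in NPCs, with 0.0488 ± 0.00887. This rank rests on its annotated exons, the longest of the NMDA genes with 24842 bases. In reads over the NPC samples Grin3b was lower, with 48 against 108.

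Of the Grin3 genes, Grin3a had 9, 7 and 4 reads in ESCs and 64, 37 and 50 in NPCs, 8.36-fold more (limma-voom adjusted p = 0.000207). Grin3b had 1, 7 and 3 reads in ESCs and 20, 15 and 13 in NPCs, 4.83-fold more, or 8.49-fold without ESC replicate 2 (limma-voom adjusted p = 0.00701). It shares 1059 exon bases with Tmem259 on the opposite strand, so that the source of its reads is uncertain.

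**Figure D2:**
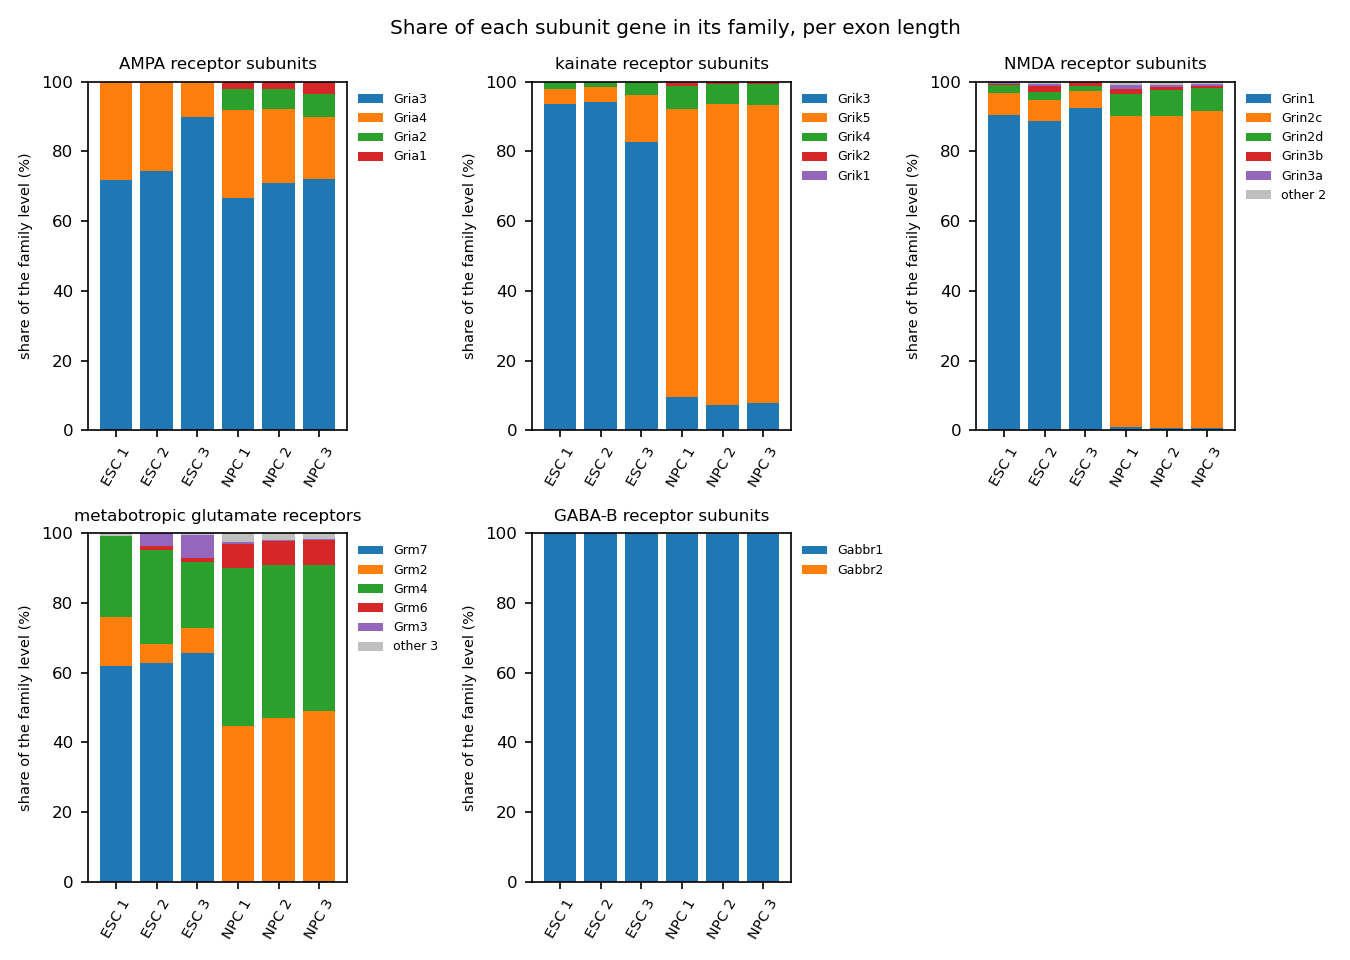
Shares of receptor genes in the summed exon RPKM of their family, in percent and without the GABA-A family, as stacked bars for 3 ESC and 3 NPC samples. The largest share passed from Grin1 to Grin2c and from Grik3 to Grik5, whereas Gria3 and Gabbr1 held the largest share in both cell types.

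Metabotropic glutamate receptors fall into group I, which includes Grm5 and is coupled to Gq, group II, encoded by Grm2 and Grm3, and group III, encoded by Grm4 and Grm6 to Grm8, both coupled to Gi/o. On recovered reads 5 of 7 tested genes rose, Grm7 fell, Grm3 was not called, and Grm5 was not tested. These counts were the same after centring. The summed level was 0.889, 0.809 and 0.632 exon RPKM in ESCs and 3.43, 3.82 and 4.12 in NPCs. The leading gene was Grm7 in ESCs, with 63.4% of the sum, and in NPCs Grm2 and Grm4, with 46.7% and 43.7%, which did not differ in level beyond their spread.

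Grm7, a presynaptic receptor, had 110, 101 and 75 reads in ESC replicates 1 to 3 and 0, 2 and 1 in NPCs. The groups were far apart, with a ratio of 86.8 in favour of ESCs (95% counting interval 29.4 to 423) and 0.490 ± 0.0692 exon RPKM in ESCs (limma-voom adjusted p = 5.21e-05). Grm2, which reduces transmitter release, had 21, 7 and 7 reads in ESCs and 227, 237 and 318 in NPCs. It was 24.8-fold higher in NPCs with no overlap, or 40.0-fold without ESC replicate 1, the highest ESC sample, and reached 1.78 ± 0.237 exon RPKM (limma-voom adjusted p = 3.25e-05). On log2(RPKM + 0.1), where it was the only metabotropic gene tested, it rose by 2.60 ± 0.14 (SE; limma adjusted p = 5.50e-06).

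Grm4 had 42, 44 and 22 reads in ESCs and 279, 274 and 334 in NPCs, 9.11-fold more, at 1.65 ± 0.0942 exon RPKM (limma-voom adjusted p = 2.22e-05). Grm6, the receptor of retinal ON bipolar cells, had 0, 2 and 1 reads in ESCs and 39, 38 and 50 in NPCs, a ratio of 46.5 (95% counting interval 15.6 to 229; limma-voom adjusted p = 9.72e-05). It reached 0.260 ± 0.0237 exon RPKM in NPCs. Grm8, Grm3 and Grm5 were close to the detection limit. Grm8 had 1 read in ESC replicate 3 and 11, 7 and 6 in NPCs (ratio 26.4, 95% counting interval 4.30 to 1084). Grm3 had 0, 3 and 4 reads in ESCs and 2, 1 and 2 in NPCs, which overlapped, and its sign differed after centring without a call (limma-voom adjusted p = 0.805, and 0.647 after centring, with a range of 0.154 to 0.981 over all alternatives). Grm5, the group I receptor known from neural progenitors, had no read in ESCs and 2, 1 and 1 in NPCs and was not tested with at least 10 reads. With a minimum of 1 read it was called higher (1.98 ± 0.42, SE; limma-voom adjusted p = 0.00484). Grm5 passes that minimum only through its 4 reads in NPCs, so the filter fixed the direction and nothing is concluded from the call.

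GABA-A receptors are pentamers, most often of α, β and γ subunits, and the ε, θ, π and ρ subunits join receptors of restricted distribution. Of the 19 subunit genes 14 were tested on recovered reads, of which 10 rose in NPCs, Gabrp fell and 3 were not called; after centring 9 were called higher and 2 lower. The summed level was 2.84, 2.74 and 1.64 exon RPKM in ESCs and 13.1, 11.3 and 10.2 in NPCs. Gabrp contributed 29.6% and Gabre 15.8% of the ESC sum, and Gabre 42.5% and Gabra3 23.4% of the NPC sum.

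Gabre, which encodes the ε subunit, lies at chrX:72255999-72274803 of GRCm38, near Gabra3 and Gabrq. It had 63, 63 and 46 reads in ESCs and 738, 677 and 653 in NPCs, and its level rose 13.3-fold without overlap, from 0.367 ± 0.0445 to 4.89 ± 0.542 exon RPKM (SD, n = 3). The log2 difference was 3.73 ± 0.18 on reads (SE; limma-voom adjusted p = 3.67e-06). On log2(RPKM + 0.1), where it was the only GABA-A gene tested, it was 2.79 ± 0.11 (limma adjusted p = 1.64e-06).

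The α subunits contribute to the GABA binding site and set the response to benzodiazepines. Gabra3 had a single read in ESC replicate 2, none in the other ESC samples, and 365, 268 and 316 reads in NPC replicates 1 to 3. The ratio was 1043 with a wide 95% counting interval of 187 to 41225, and the level in NPCs was 2.69 ± 0.338 exon RPKM (limma-voom adjusted p = 4.27e-06). Gabra4 had 0, 1 and 2 reads in ESCs and 225, 125 and 123 in NPCs, a ratio of 173 (95% counting interval 58.9 to 843; limma-voom adjusted p = 9.30e-05). NPC replicate 1 lay above the other NPC samples, and exons of Gabra4 share 46 bases with exons of Gabrb1 on the opposite strand. Gabra5 had 8, 4 and 1 reads in ESCs and 53, 37 and 37 in NPCs (11.04-fold, or 18.8-fold without ESC replicate 1; limma-voom adjusted p = 0.000788). Gabra2 had no read in ESCs and 12, 8 and 2 in NPCs, at least 8.06-fold more (limma-voom adjusted p = 0.00382). It passed the minimum only through NPCs. Gabra6, known from cerebellar granule cells, had no read in any of the 6 samples.

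The β subunits are needed for assembly. Gabrb2 had 10, 5 and 4 reads in ESCs and 37, 16 and 21 in NPCs, 4.31-fold more (limma-voom adjusted p = 0.00507). Gabrb1 had 19, 13 and 11 reads in ESCs and 29, 20 and 16 in NPCs and was not called (limma-voom adjusted p = 0.0998; 0.0457 without NPC replicate 3 and 0.915 after centring, where its sign differed, which were the lowest and highest of all alternatives).

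Gabrg3 and Gabrg1 encode γ subunits. Gabrg3 had 10, 10 and 15 reads in ESCs and 11, 7 and 7 in NPCs and was called lower only after centring (limma-voom adjusted p = 0.436, and 0.0374 after centring, with a range of 0.0374 to 0.838 over all alternatives). Gabrg1 had no read in ESCs and 1, 5 and 0 in NPCs and was not tested with at least 10 reads (limma-voom adjusted p = 0.133 with a minimum of 1 read). The share of Gabrg3 in the summed GABA-A level was 0.866%, 0.905% and 2.49% in ESC replicates 1 to 3 and 0.200% on average in NPCs, and that of Gabrg1 was 0.0793% in NPCs.

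Gabrp, the π subunit gene known from tissues outside the brain, had 98, 109 and 41 reads in ESC replicates 1 to 3 and 4, 2 and 1 in NPCs. ESC replicate 3 was lower than the other ESC samples and still above all NPCs, and Gabrp was 31.4-fold lower in NPCs, or 47.6-fold without NPC replicate 1 (log2 difference -4.77 ± 0.65, SE; limma-voom adjusted p = 0.000483; -5.16 and adjusted p = 1.07e-06 without ESC replicate 3, with a range of 1.07e-06 to 0.00351 over all alternatives). Gabrq, the θ subunit gene, was without a read in ESCs and had 14, 4 and 8 in NPCs, at least 9.52-fold more (limma-voom adjusted p = 0.000374). Gabrq passed the minimum only through NPCs. The ρ subunit genes, best known from the retina, were close to the detection limit. Gabrr1 had 8, 6 and 0 reads in ESCs and 0, 0 and 1 in NPCs, a ratio of 12.7 in favour of ESCs (95% counting interval 1.94 to 539), which was called only without ESC replicate 3 (limma-voom adjusted p = 0.174, and 0.000588 without it, with a range of 0.000588 to 0.349 over all alternatives). Gabrr2 had 0, 0 and 3 reads in ESCs and 1, 4 and 1 in NPCs, Gabrr3 2 reads in NPC replicate 2 only, and Gabrd, the δ subunit gene of extrasynaptic receptors, 1 read in ESC replicate 3 and 2 in NPC replicate 3. These genes were not tested with at least 10 reads and not called with a minimum of 1 read (limma-voom adjusted p from 0.237 to 0.658).

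The GABA-B receptor is an obligate pair of the product of Gabbr1, which binds GABA, and that of Gabbr2, which couples to the G protein and brings the pair to the cell surface. Both cell types held much Gabbr1 and close to no Gabbr2. Gabbr1, at chr17:37045966-37075067 of GRCm38, had 4484, 4007 and 1805 reads in ESC replicates 1 to 3 and 3720, 4169 and 4631 in NPCs. ESC replicate 3 was low and the other ESC samples overlapped with the NPCs, at 17.0, 15.3 and 7.55 exon RPKM against 15.9, 19.7 and 18.5. Gabbr1 was not called on either scale (0.53 ± 0.31 on reads, SE, limma-voom adjusted p = 0.162; 0.50 on log2(RPKM + 0.1), limma adjusted p = 0.174). Without ESC replicate 3 the log2 differences were 0.16 and 0.15 (adjusted p = 0.0951 in limma-voom and 0.187 in limma), and after centring the sign on reads differed, at -0.22. Over all alternatives the adjusted p ranged from 0.0729 to 0.450 in limma-voom and from 0.0803 to 0.664 in limma.

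Gabbr2 had 4, 3 and 1 reads in ESCs and 6, 7 and 9 in NPCs, 3.07-fold more (limma-voom adjusted p = 0.0152). The call was lost after centring (limma-voom adjusted p = 0.108) and without NPC replicate 3 (limma-voom adjusted p = 0.0511), and over all alternatives the adjusted p of limma-voom ranged from 0.0142 to 0.108. Gabbr2 amounted to 0.0849% of the summed GABA-B level in ESCs and 0.202% in NPCs.

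In order of mean exon RPKM, the highest receptor genes of ESCs were Gabbr1 with 13.3 ± 5.02, Grik3 with 11.8 ± 6.08 and Grin1 with 3.27 ± 0.234 (SD, n = 3). Gabbr1 and Grik3 did not differ beyond their spread. No read was present in ESCs for 11 receptor genes. Over all genes, 15889, 15995 and 15652 had a value above 0 in ESC replicates 1 to 3. How many of all genes had no read in any ESC sample was not counted. In NPCs the order was Grik5 with 27.7 ± 2.42, Gabbr1 with 18.02 ± 1.94, Grin2c with 15.3 ± 1.70, Gabre with 4.89 ± 0.542 and Gria3 with 3.91 ± 0.224. It continued with Gabra3 and Grik3, at 2.69 ± 0.338 and 2.67 ± 0.216, which did not differ beyond their spread. In all, 13 receptor genes reached 1 exon RPKM in NPCs. By deposited RPKM, 2 did so in ESCs, Gabbr1 and Grin1, and 4 in NPCs, Gabbr1, Grik5, Grin2c and Gabre.

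Receptor subunits work with partner proteins that traffic, anchor and tune them, and 72 such genes were counted in 7 lists. In limma on log2(RPKM + 0.1) 33 of them were tested, of which 25 rose, 3 fell and 5 were not called. On recovered reads 67 were tested with limma-voom, of which 51 rose, 7 fell and 9 were not called, with a median log2 difference of 2.96 against 0.43 over all genes. The shares over all genes were the 41.3% higher and 30.0% lower given above on log2(RPKM + 0.1), and 45.8% and 26.9% on reads. As for the receptor genes, partner genes that pass the minimum through only a single cell type had to differ. After centring 47 were called higher and 10 lower, against 5260 and 7253 of all 16181 genes.

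ESC replicate 3 moved the partner counts. Without it 54 rose, 10 fell and 3 were not called on reads, against 8197 higher and 5558 lower of 16049 genes, and on log2(RPKM + 0.1) 30 rose, 4 fell and 1 was not called, against 5884 and 4714 of 12179. On reads the glutamate receptor scaffold Dlg1 (0.24, limma-voom adjusted p = 0.0012) and Gabarap, whose product binds GABA-A receptors (0.90, limma-voom adjusted p = 3.9e-07), joined those called higher. The transporter gene Slc38a1 (-0.21, limma-voom adjusted p = 0.000952), whose sign differed, was among those that joined the genes called lower. These genes were named after their values were seen. The counts per list below include ESC replicate 3.

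Auxiliary subunits of ionotropic glutamate receptors and the δ receptors, 15 genes, had 13 that rose and 1 that fell on reads, and 4 of 4 tested rose on log2(RPKM + 0.1). Cnih2, a cornichon that escorts AMPA receptors, had deposited RPKM of 0.159, 0.150 and 0.217 in ESCs and 1.85, 1.55 and 1.77 in NPCs, and rose by 2.74 on log2(RPKM + 0.1) (limma adjusted p = 3.72e-06). Cacng7, a transmembrane AMPA receptor regulatory protein, had 66, 59 and 42 reads in ESCs and 798, 567 and 719 in NPCs, and rose by 2.35 on the same scale (limma adjusted p = 2.72e-06). NPC and ESC samples did not overlap for either gene. Shisa9, named after its values were seen, had no read in ESCs and 950, 670 and 702 in NPCs. The gene that fell was Cacng5, also named after its values were seen, with 17, 21 and 12 reads in ESCs and 5, 7 and 6 in NPCs.

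Scaffolds of glutamate receptors, 18 genes, had 14 that rose and 2 that fell on reads, and 8 that rose and 1 that fell of 11 tested on log2(RPKM + 0.1). Dlg4, which encodes the postsynaptic scaffold PSD-95, had deposited RPKM of 0.0361, 0.0313 and 0.0206 in ESCs and 3.89, 4.03 and 4.11 in NPCs, and rose by 4.99 on log2(RPKM + 0.1) (limma adjusted p = 1.49e-07). Dlgap3, a partner of PSD-95 and Shank proteins, moved the other way on the same scale, with 3569, 4159 and 3315 reads in ESCs and 109, 125 and 146 in NPCs, and fell by 3.43 (limma adjusted p = 4.97e-07). The second gene that fell on reads was Dlgap1, with 215, 237 and 203 reads in ESCs and 45, 34 and 57 in NPCs, named after its values were seen.

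Scaffolds and auxiliary proteins of GABA receptors, 12 genes, had 10 that rose and 1 that fell on reads, and 7 of 8 tested rose on log2(RPKM + 0.1). Shisa7, an auxiliary protein of GABA-A receptors, had 96, 97 and 52 reads in ESCs and 1094, 1016 and 1084 in NPCs, and rose by 3.11 (limma adjusted p = 2.63e-06). Kctd12, an auxiliary subunit of GABA-B receptors, had 7, 8 and 12 reads in ESCs and 184, 162 and 178 in NPCs, and rose by 2.87 (limma adjusted p = 1.20e-06). Neither gene had overlapping groups.

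Of 11 genes of glutamate synthesis and transport, 6 rose and 2 fell on reads, and 3 rose and 1 fell of 5 tested on log2(RPKM + 0.1). Slc1a3, a glutamate transporter of radial glia and astrocytes, had 199, 142 and 93 reads in ESCs and 2135, 1898 and 2456 in NPCs, and rose by 2.74 (limma adjusted p = 1.67e-06). Gls2, a glutaminase gene, moved the other way, with 1235, 1267 and 943 reads in ESCs and 127, 123 and 151 in NPCs, and fell by 2.59 (limma adjusted p = 2.38e-06). Slc17a6, a vesicular glutamate transporter gene named after its values were seen, had no read in ESCs and 3 in all NPC samples together.

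Of 9 genes of GABA synthesis, transport and breakdown, 5 rose and 1 fell on reads, and 2 rose and 1 fell of 3 tested on log2(RPKM + 0.1). Abat, the transaminase that degrades GABA, had 12, 12 and 6 reads in ESCs and 1257, 778 and 862 in NPCs, and rose by 1.94 (limma adjusted p = 2.14e-05). Aldh5a1, which takes the next step of breakdown, had 371, 372 and 222 reads in ESCs and 1004, 916 and 1078 in NPCs, and rose by 1.53 (limma adjusted p = 0.000112). Gad1, a GABA-synthesizing decarboxylase, had 221, 245 and 192 reads in ESCs and 113, 94 and 117 in NPCs, and fell by 0.44 (limma adjusted p = 0.000991). Its groups did not overlap, although the difference was smaller than for the genes of breakdown.

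The chloride gradient decides whether GABA excites or inhibits a cell. Of the 2 cotransporters, Slc12a5, which extrudes chloride, had 50, 61 and 43 reads in ESCs and 1053, 924 and 1030 in NPCs, and rose by 2.78 on log2(RPKM + 0.1) (limma adjusted p = 4.62e-07). Slc12a2, which imports chloride, was not called (0.51; limma adjusted p = 0.121), but without ESC replicate 3 it was called higher on both scales (0.20, limma adjusted p = 0.0218; 0.23 on reads, limma-voom adjusted p = 0.00519). Of 5 glycine receptor genes none reached the mean of 0.1 RPKM, and on reads 2 of 3 tested rose and none fell. Without ESC replicate 3 the remaining gene, Glra4, named after its values were seen, was called lower (-1.20, limma-voom adjusted p = 0.029), with 25, 15 and 5 reads in ESCs and 4, 8 and 11 in NPCs.

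Position relative to the nucleolus was taken from the deposited NAD lists, with 1769 NADs over 792 Mb in ESCs and 1447 NADs over 728 Mb in NPCs on GRCm38. The start of 19 of the 45 receptor genes (42.2%) lay in a NAD of ESCs, and of 7 (15.6%) in a NAD of NPCs. Over all 21432 genes with a position on these chromosomes the shares were 23.6% and 18.9%. Over the 1920 genes whose span was at least the median span of the receptor genes they were 34.5% and 29.5%. With any overlap of the gene counted, 23 receptor genes (51.1%) lay in NADs of ESCs and 14 (31.1%) in NADs of NPCs. The shares of all genes were then 27.1% and 21.6%, so that the comparison in NPCs depended on the way of counting. Receptor genes are long, overlap of any part grows with gene length, and its share among long genes was not computed. The starts of 6 receptor genes lay in NADs of both cell types, of 13 only in ESCs, of Grm3 only in NPCs and of 25 in neither. Over all 21432 genes 11.6% were in both, 12.1% only in ESCs, 7.36% only in NPCs and 69.0% in neither. The lists have no replicate values, so these counts carry no error and were not tested. Neighbouring members share NADs and are not independent: the 19 starts lay in 13 NADs.

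The GABA-A genes stand in clusters, and the clusters on chromosomes 5 and 11 lay in NADs of ESCs. The NAD at chr11:41199782-42700135, with a score of 0.0217, held the starts of Gabra6 and Gabrb2. In NPCs a NAD at chr11:42301514-42400236, with a score of 0.0332, held the start of Gabra6 but not that of Gabrb2. On chromosome 5, the NAD at chr5:70800162-71199546 (score 0.0193) held the starts of Gabrg1 and Gabra2 in ESCs, and that at chr5:71498082-72400094 (score 0.0270) those of Gabra4 and Gabrb1. In NPCs only the start of Gabrg1 lay in a NAD there, at chr5:70799945-70899964 with a score of 0.0347. Scores of the cell types come from separate lists and are not compared.

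**Figure D3:**
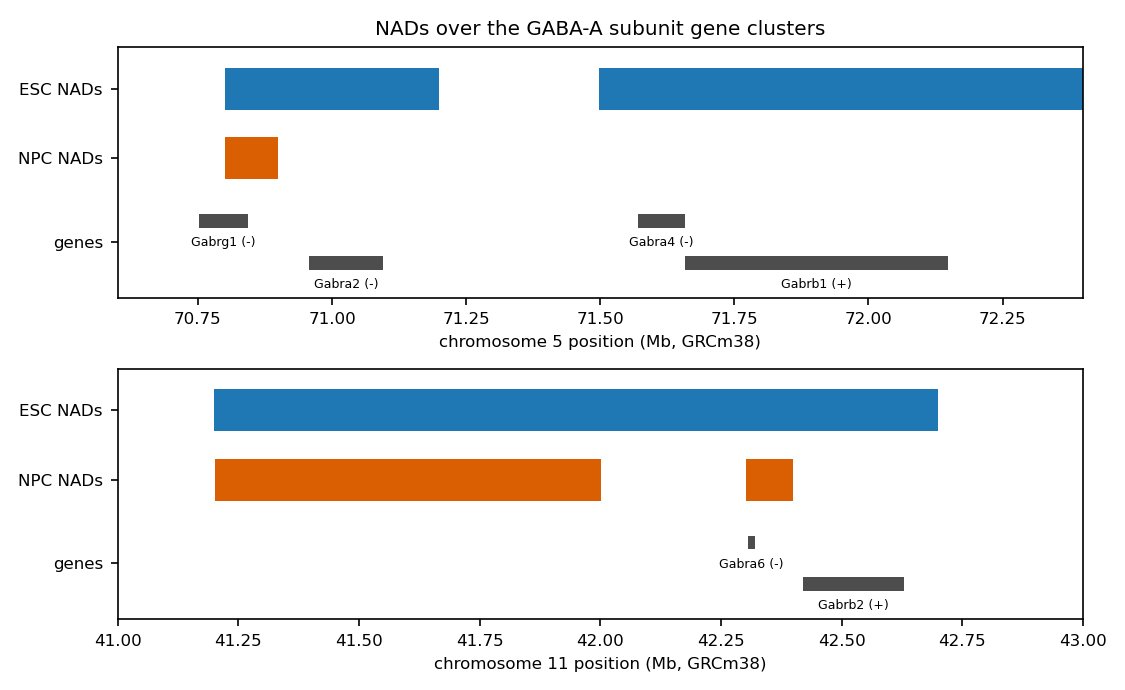
NADs of ESCs (blue) and NPCs (orange) and GABA-A genes (grey, strand in brackets) on chromosomes 5 and 11, with the position in Mb of GRCm38 on the horizontal axis. In ESCs NADs cover the starts of all genes drawn, and in NPCs those of Gabrg1 and Gabra6.

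Among AMPA genes, Gria2 started in a NAD of ESCs only, at chr3:80599953-81499552 (score 0.0392), whereas Gria3 and Gria4 started in NADs of both cell types. For Gria3 these were chrX:41400110-41899744 in ESCs (score 0.0254) and chrX:41200177-42400001 in NPCs (score 0.0408). For Gria4 they were chr9:3299449-4800301 in ESCs (score 0.0478) and chr9:3000003-4800301 in NPCs (score 0.0526). Both genes rose in NPCs while their starts remained in NADs. Grik2 was alike, with chr10:49400397-50900081 in ESCs (score 0.0314) and chr10:48900176-51399546 in NPCs (score 0.0424), and so was Grm8, with chr6:27700173-28300490 in ESCs (score 0.0172) and chr6:27300082-28700389 in NPCs (score 0.0339).

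The start of Grin1 lay in the NAD chr2:19799709-26000945 of ESCs, where the gene was high, and 419175 bases from the nearest NAD in NPCs, where it was low. The score of that NAD, 0.0871, was above that of 97.2% of the ESC NADs. Grm7, the other gene that fell with a start in an ESC NAD, had it in chr6:110600635-110699764 (score 0.0197), which covered 5.88% of the gene. Gabrr1 and Gabrr2 started in chr4:33000139-33501183 (score 0.0468), and Gabrr3 in chr16:59399635-59800417 (score 0.0217) in ESCs only. Grm3 started in chr5:9098928-9999907 of NPCs (score 0.0327). In total, 11 of the 30 genes that rose on reads started in a NAD of ESCs and 4 in a NAD of NPCs, and of the 4 that fell 2 started in a NAD of ESCs and 0 in one of NPCs. Of all 7401 genes that rose on reads and have a position, 22.8% started in a NAD of ESCs and 19.2% in a NAD of NPCs, and of the 4344 that fell 20.5% and 16.0%. Grik5, Grin2c, Gabre, Grik3 and Gabbr1 lay in no NAD of either list.

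Promoter sequence was taken from RefSeq on GRCm38.p6, where 32 of the 45 receptor genes matched by symbol, as the 250 bases before the annotated start. The median number of CpG dinucleotides was 10.5 for receptor genes and 6 for all 27025 genes, and the median GC content 61.6% and 52.0%. At least 10 CpG were present in 16 of 32 promoters (50.0%), against 38.2% of all promoters. The GC box GGGCGG, on either strand, was present in 17 (53.1%), against 32.9%, and TATAAA, on either strand, in 3 (9.38%), against 13.0%. The cAMP response element TGACGTCA was in 0 of 32 windows and in 1.62% of all promoters. Of these motifs, the GC box and the cAMP response element contain a CpG themselves. A match describes letters and not a bound site.

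The promoters of Grin1 and Grin2c are shown because these NMDA genes moved most in opposite directions among genes tested on both scales. The window of Grin1 is chr2:25319188-25319437 on the minus strand with 27 CpG, and that of Grin2c chr11:115267244-115267493 on the minus strand with 15 CpG. CpG dinucleotides are in capitals, and the sequences run 5′ to 3′ on the strand of the gene.
Grin1: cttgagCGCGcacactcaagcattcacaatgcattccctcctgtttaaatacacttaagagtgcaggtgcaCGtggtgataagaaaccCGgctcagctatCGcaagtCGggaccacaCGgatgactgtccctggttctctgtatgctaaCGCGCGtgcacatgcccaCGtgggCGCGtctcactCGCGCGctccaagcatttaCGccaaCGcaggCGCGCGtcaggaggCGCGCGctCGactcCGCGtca
Grin2c: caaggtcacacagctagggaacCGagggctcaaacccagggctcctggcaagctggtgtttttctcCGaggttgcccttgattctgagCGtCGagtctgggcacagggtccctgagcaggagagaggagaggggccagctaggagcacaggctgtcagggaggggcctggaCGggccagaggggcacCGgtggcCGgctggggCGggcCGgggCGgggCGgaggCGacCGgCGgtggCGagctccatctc

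The repressor REST, which keeps neuronal genes silent outside neurons, is known to bind the RE1 element, whose left part holds TTCAGCACC and whose right part GGACAGCGC. Searched on both strands, the left part was found in 1 of 32 receptor promoters, that of Grm2, and in 0.285% of all promoters, and the right part in 1 of 32, that of Gria2, and in 0.326%. Both genes rose in NPCs, and they are shown because no other receptor window held these letters. The window of Gria2 is chr3:80802836-80803085 on the minus strand, and that of Grm2 chr9:106656110-106656359 on the minus strand. The matched letters are in capitals, in Gria2 as the reverse complement.
Gria2: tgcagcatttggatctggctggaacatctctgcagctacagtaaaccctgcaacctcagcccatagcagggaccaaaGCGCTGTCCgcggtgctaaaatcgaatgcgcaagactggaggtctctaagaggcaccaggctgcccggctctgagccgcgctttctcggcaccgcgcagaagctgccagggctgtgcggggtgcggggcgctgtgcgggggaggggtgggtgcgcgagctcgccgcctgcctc
Grm2: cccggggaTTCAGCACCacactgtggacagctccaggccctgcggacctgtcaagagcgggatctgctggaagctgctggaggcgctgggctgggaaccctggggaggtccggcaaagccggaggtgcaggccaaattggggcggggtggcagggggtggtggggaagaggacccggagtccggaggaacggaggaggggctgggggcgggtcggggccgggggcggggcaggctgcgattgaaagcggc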

How the data were processed

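RNAseq reads were quality-checked with FastQC, cleared of rRNA with SortMeRNA, trimmed with Trimmomatic and aligned to mm10 (GRCm38) with STAR by the authors, who deposited RPKM values per gene from a pipeline of their own; which annotation, strand setting and rule for reads with several positions they used is not given in the sources at hand. For NADs the authors aligned reads with Bowtie2 2.3.4.3, normalized H2B-Dam-NoLS to H2B-Dam, called domains, kept those common to both replicates and deposited 1 score per NAD, whose scale is their own.

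The tables hold 22064 lines with 21909 symbols; identical lines were counted once, and 40 symbols with differing lines were left out. Values of log2(RPKM + 0.1) of genes with a mean of at least 0.1 RPKM were fitted with limma 3.58.1 under R 4.3.3, using eBayes with a trend, and p-values were adjusted by Benjamini-Hochberg over all of these genes. After the values had been seen, limma-voom was added on reads recovered from the steps of the RPKM values and gene spans, over genes with at least 10 reads. Receptor genes had the GENCODE M21 span, apart from 1 with the RefSeq span and 1 with the common step of its values. Other genes had the GENCODE M21 span or, where it was absent or did not give whole reads, another annotated span. Genes whose reads were not whole under any span were kept. Exon RPKM divides recovered reads by the joined annotated exons. Bounds assume 3 reads over the group, and intervals are exact conditional binomial 95% intervals. Other steps used Python 3.11.15, pandas 2.3.3 and scipy 1.17.1. Both fits were also run on simulated data, in which no sample stood apart as ESC replicate 3 did. Nothing about the measured samples is concluded from that run.

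The receptor genes, the 7 partner lists (auxiliary subunits and δ receptors, glutamate receptor scaffolds, GABA receptor scaffolds and auxiliary proteins, glutamate synthesis and transport, GABA synthesis, transport and breakdown, chloride cotransporters, glycine receptors) and the 8 marker lists (pluripotent cells, neural progenitors, neurons, astrocytes, oligodendrocyte lineage, neural crest, mesoderm and endoderm, endothelial cells) were chosen with earlier results of these data known. Named genes were all members, the called genes with the largest differences per partner list (2 each way on log2(RPKM + 0.1)), the most abundant marker per list and cell type (by exon RPKM, chosen after the values had been seen), and NADs with the start of a member; others are said to be named after their values were seen. Some genes of these lists, members among them, are not reported here singly, also not in the figures, but are part of the counts and sums. Alternatives were other pseudocounts, filters, scalings, thresholds and NAD counts, a robust fit, samples left out in turn and the replicate number as a block.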

Additional observations from a re-analysis of the deposited data

How the results depend on the processing

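No called difference of a receptor gene reversed. On log2(RPKM + 0.1), 98 log2 differences of single receptor genes under alternatives kept direction and side of the threshold and 1 did not, that of Grik3 with samples rescaled to the same sum; on recovered reads 339 kept their side of the threshold, 4 of them uncalled with another sign (of Grm3, Gabrb1 and Gabbr1), 3 passed the threshold only under an alternative and 3 lost it. The counts of receptor genes rested on the filter. Without a filter on low values limma called 23 receptor genes higher and 4 lower and 47 partner genes higher and 7 lower, against 7274 and 4319 of all 18320 genes. With a mean of at least 1 RPKM, 3 receptor genes were tested, 2 were called higher, both at least 2-fold, and 0 lower. In limma 0 were also lower at an unadjusted p below 0.05, against 4 on recovered reads, since no gene that fell was tested. Beside these, 8 partner genes were higher and 1 lower, and of all 7203 genes 2339 were higher and 2484 lower. With at least 1 RPKM in 3 samples and a pseudocount of 1, 5 receptor genes were tested, 3 called higher and 1 lower, the latter at least 2-fold. Partner genes called higher numbered 11, and of all 7815 genes 2890 were higher and 2597 lower. These filters leave fewer genes tested. With recovered reads, an alternative added after the values were seen, 30 receptor genes were higher and 4 lower, all at least 2-fold, and 51 partner genes were higher and 7 lower. With a pseudocount of 1 RPKM 1 receptor gene was at least 2-fold lower. With samples rescaled to the same sum 4 receptor genes were called higher and 1 lower, the latter at least 2-fold. Of all 12110 genes 5842 were then higher and 2239 lower. With recovered reads centred on the median, 5260 of all 16181 genes were higher and 7253 lower. The cause was not tested.

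The number of receptor genes at 1 RPKM or more in ESCs was 1 at a threshold of 2 RPKM and 4 per kilobase of exon, and in NPCs 9 at a threshold of 0.1 RPKM and 13 per kilobase of exon. Receptor genes in NADs numbered 8 in ESCs and 2 in NPCs when only NADs at or above the median score counted. This cut leaves fewer NADs, and without the share of all genes under it these counts are not compared. When any overlap counted, they numbered 23 in ESCs (51.1%, against 27.1% of all genes) and 14 in NPCs (31.1%, against 21.6%). In NPCs the share thus passed from below to above that of all genes. Overlap of any part grows with gene length, and its share among long genes was not computed. The median difference of all receptor genes on the log2 scale was 0.0043 with a pseudocount of 1, 0.3582 with 0.01 and 0.4210 after rescaling to the same sum. That rescaling shifted the median of all 12110 tested genes by 0.44. Leaving out each sample in turn gave 4 to 5 receptor genes higher and 2 lower on log2(RPKM + 0.1), and 29 to 30 higher and 4 to 5 lower on reads. Over all genes, 4251 to 5884 of 12014 to 12179 were then higher on log2(RPKM + 0.1) and 3033 to 4714 lower. On reads 6505 to 8197 of 15947 to 16053 were higher and 3624 to 5558 lower.

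Replicate numbers did not pair the samples: the deviations of same-numbered ESC and NPC samples correlated by 0.0826, -0.0673 and 0.0106. With the number as a block 4 receptor genes were higher and 2 lower on log2(RPKM + 0.1), and 30 and 4 on recovered reads. Over all genes the block gave 4802 higher and 3426 lower on log2(RPKM + 0.1), and 7122 and 4070 on reads.

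At 27.3 to 34.1 M reads per sample, genes with fewer than 10 reads over the 6 samples were not tested. With a minimum of 1 read 44 receptor genes were tested, of which 31 were called higher and 4 lower. Of all 17868 genes, 7562 were then higher and 4383 lower. Grm5, which passes this minimum only through NPCs, was among those called higher. Gabrg1, Gabrd, Gabrr2 and Gabrr3 were tested only with this minimum and not called. Read totals were inferred from the steps between values.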
